A study of Homo sapiens with 4 samples.

Results

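The genes described here encode the subunits of the mitochondrial oxidative phosphorylation complexes, followed in REC-1 and Z138, 2 human mantle cell lymphoma (MCL) cell lines. MCL is a B-cell cancer in which the cyclin D1 gene is placed under immunoglobulin control. Members were chosen by gene symbol. They were the genes whose symbol starts with NDUFA, NDUFB, NDUFC, NDUFS, NDUFV, UQCR, COX4 to COX8 or ATP5, together with SDHA, SDHB, SDHC, SDHD, CYC1 and CYCS, with pseudogenes left out. This rule found 93 of the 18239 genes that had a probe set with 1 gene symbol. It takes in 8 NDUFAF genes, whose products build complex I without staying in it, and they are described apart from the subunits. SDHB and UQCRFS1 are among the genes of the rule that are not analysed here.

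Each line was profiled on 1 array as an untreated control and on 1 array after CC-292. This compound blocks BTK (Bruton tyrosine kinase), which relays the B-cell receptor signal. The 4 groups were thus REC-1 control, REC-1 with CC-292, Z138 control and Z138 with CC-292, all of them established lines grown in culture. The labels give 48 h for every group but the Z138 control, whose title names no time. The dose is 1 uM in the protocol and 1 mM in the titles of the drug-treated samples. The design asks what the drug does in each line, and the line difference without drug is the other comparison it allows.

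Oxidative phosphorylation couples the oxidation of nutrients to ATP synthesis in the inner mitochondrial membrane. Complex I takes electrons from NADH and complex II takes them from succinate. Complex III passes them through cytochrome c to complex IV, which reduces oxygen, and the ATP synthase, complex V, uses the proton gradient that results. Most subunits are encoded in the nucleus, while a few central ones are made from mitochondrial DNA, and no probe set was assigned to those. B-cell lymphomas differ in how far they rely on this pathway rather than on glycolysis.

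Values are log2 signals of a gene's brightest probe set (by its mean over the arrays), so that a difference of 1 is 2-fold. Signals of different genes depend on their probes and are not compared with each other. Genes were kept when at least 1 array was at or above log2 4.63, the median of the whole table. Of the 93 members 87 were kept, 86 of them at or above this minimum on all 4 arrays. B-cell identity was seen in the probe sets, as 5 of 5 measured B-cell markers and both MCL markers (CCND1 and SOX11) reached the minimum on every array. None of the 6 T and NK cell markers, the 5 myeloid markers and the 2 fibroblast markers did so on every array. However, CD247, a T and NK cell marker, was above the minimum on both Z138 arrays (5.7 and 6.02). It was below it on both REC-1 arrays (3.43 and 3.68). COL1A1 reached the minimum on 3 arrays, COL1A2 on 2 and CD3D on 1, while no myeloid marker reached the minimum on any. HBB, an erythroid marker, was just above it (4.85 to 4.95). Array medians lay between 4.63 and 4.64. RNA integrity can be read from the 3' minus 5' probe difference of control genes. For ACTB it was 0.77 in the REC-1 control, 0.53 in REC-1 with CC-292, 1.12 in the Z138 control and 1.11 in Z138 with CC-292. For GAPDH it was -0.32, -0.31, -0.28 and -0.24 in the same order. The part of these differences in the results was not tested.

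The members differed more between the lines than after CC-292 in either line. The median size of the difference was 0.36 between the control arrays, 0.09 after CC-292 in REC-1 and 0.07 in Z138, beside 0.50, 0.20 and 0.14 over all genes. The line difference was tested with limma across all 10823 genes kept, over the control and CC-292 arrays of each line, so that each line had 2 arrays. Of the 87 members, 18 were higher in REC-1 and 10 lower at an adjusted p under 0.05, and 59 did not pass. Of all genes tested, 21.6% were higher and 23.1% lower, with 32.2% of the 87 members and 44.7% of all genes passing either way. With an intensity trend in limma 33 members were higher and 14 lower, 54% of them beside 53% of all genes. At an unadjusted p under 0.05 in limma it was 39 members, against 53% of all genes. The 2 arrays of a line are a control and a CC-292 array and not replicates. The error behind these p-values is how far the line difference changed between control and CC-292 arrays, moderated by limma over all genes. It thus mixes array error with any CC-292 effect that differs between the lines. Whether the arrays of a line came from separate cultures is not stated in the labels, so this error may hold no variation between cultures.

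Complex I held 21 of the 28 members that passed, 13 higher and 8 lower in REC-1, out of 44 kept. This is 47.7% of its genes, near the 44.7% of all genes that passed. Without the 8 assembly factors it was 11 higher and 7 lower of 36 (median line difference 0.20). Complex II had 1 of 3, complex III 1 of 9, complex IV 1 of 11 and the ATP synthase 4 of 19. The median line difference was 0.24 for complex I with its assembly factors and 0.36 for complex III, beside 0.05 for complex IV, 0.10 for the ATP synthase and 0.00 for all genes. On the control arrays alone 61 of 87 members were above 0, meaning higher in REC-1, against 51.1% of all genes. Of these 15 were at least 1.5-fold higher, where 22.2% of all genes were, and 8 at least 1.5-fold lower, where 21.7% were, and 26 of 87 were below 0 (48.9% of all genes). The median control difference was 0.20 over members and 0.02 over all genes.

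**Figure D1:**
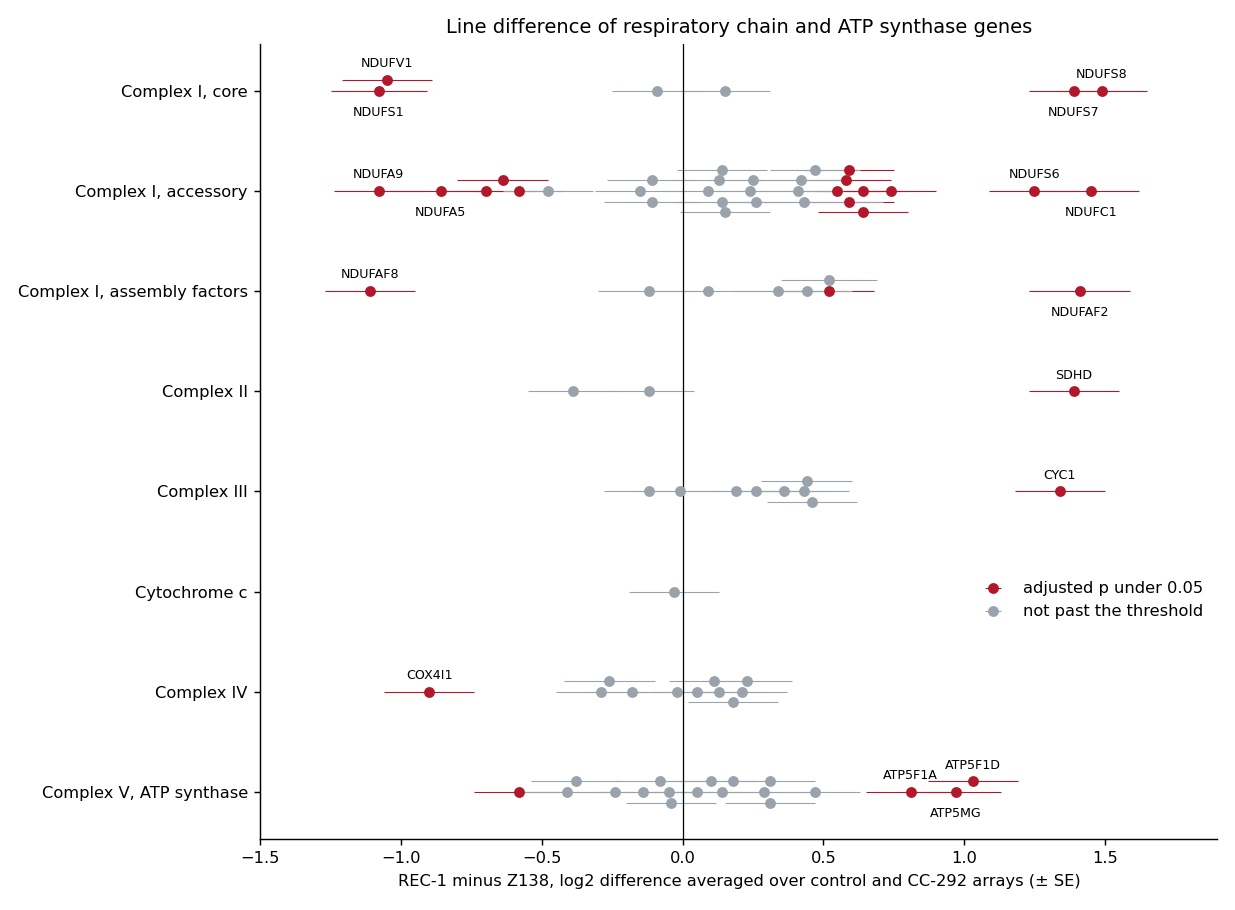
Each point is 1 gene, plotted at its REC-1 minus Z138 log2 difference averaged over control and CC-292 arrays (x axis, bars are ± moderated SE from limma), in rows by complex and role. Red points passed an adjusted p of 0.05. The named genes lie at or beyond 0.8 in either direction. Complex I with its assembly factors holds more of them than any other complex on each side, and has 44 of the 87 members shown.

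The core of complex I, the subunits shared with bacterial enzymes that carry electrons from NADH to ubiquinone, split in opposite directions. NDUFS8 and NDUFS7, which hold the iron-sulfur clusters nearest to ubiquinone, were higher in REC-1. NDUFS8 read 10.25 and 10.15 in REC-1 (control, then CC-292) and 8.67 and 8.74 in Z138, a line difference of 1.49 ± 0.16 (SE, adjusted p = 0.0014, limma). Its second probe set did not share this difference (-0.11). NDUFS7 read 10.82 and 10.69 in REC-1 and 9.37 and 9.36 in Z138 (1.39 ± 0.16, adjusted p = 0.0017, limma), and its 2 other probe sets gave 1.19 and 1.2.

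NDUFV1 and NDUFS1 went the other way. NDUFV1, the subunit that binds NADH and the flavin cofactor, read 7.90 and 7.84 in REC-1 and 8.85 and 8.99 in Z138 (-1.05 ± 0.16, adjusted p = 0.0044, limma). NDUFS1, the large iron-sulfur subunit that takes electrons from it, read 7.97 and 7.63 in REC-1 and 8.88 and 8.87 in Z138 (-1.08 ± 0.17, adjusted p = 0.0050, limma). All 4 other probe sets of NDUFS1 were lower in REC-1 too, by -0.61 to -1.04, while NDUFV1 had 1 probe set. In these 4 core genes the arrays of the lines did not overlap. Such separation was common, with both REC-1 arrays above both Z138 arrays in 37.9% of all genes and below them in 38.9%. The other 2 measured core genes, NDUFS3 (-0.09) and NDUFV2 (0.15), did not pass (adjusted p = 0.67 and 0.49, limma).

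Accessory subunits surround the core and are needed for its assembly and stability. Of 30 kept, 9 were higher in REC-1 and 5 lower (46.7% either way, beside 44.7% of all genes). NDUFC1, a small subunit of the membrane arm, read 11.21 and 11.08 in REC-1 and 9.61 and 9.78 in Z138, a 2.74-fold line difference (1.45 ± 0.17, adjusted p = 0.0018, limma). NDUFS6, a zinc-binding subunit that joins late in assembly, read 11.36 and 11.35 against 10.06 and 10.16 (1.25 ± 0.16, adjusted p = 0.0024, limma). Both had 1 probe set, so that no second reading of these differences exists on the array.

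The other 7 higher accessory genes lay between 0.55 (NDUFB9) and 0.74 (NDUFV3) and included NDUFA11 at 0.59, NDUFA12 at 0.58 and NDUFA8 at 0.59. The lowest was NDUFA9, which sits where the arms of the complex meet. It read 9.29 and 9.13 in REC-1 and 10.30 and 10.27 in Z138 (-1.08 ± 0.16, adjusted p = 0.0038, limma). NDUFA5, an accessory subunit of the matrix arm, read 8.46 and 8.33 against 9.10 and 9.41 (-0.86 ± 0.18, adjusted p = 0.014, limma). NDUFA6 (-0.70), NDUFS5 (-0.64) and NDUFB3 (-0.58) were the other 3 lower ones. The probe sets of NDUFB3 disagreed, with its 2 others at -0.34 and 0.10. NDUFV3 had a second probe set at 0.17, and on the control arrays its 2 probe sets had an SD of 0.62.

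Of the 8 NDUFAF assembly factor genes, 2 were higher and 1 lower in REC-1 (37.5% either way, beside 44.7% of all genes). NDUFAF2, a chaperone of late complex I assembly, read 9.46 and 9.32 in REC-1 and 7.83 and 8.13 in Z138 (1.41 ± 0.18, adjusted p = 0.0026, limma). NDUFAF8, which stabilises NDUFAF5, read 8.23 and 8.25 against 9.38 and 9.32 (-1.11 ± 0.16, adjusted p = 0.0034, limma), and its second probe set gave -1.0. NDUFAF3 was at 0.52 (adjusted p = 0.044, limma). The remaining 5 ranged from -0.12 (NDUFAF1) to 0.52 (NDUFAF6) without passing.

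In complex II, the gene of one membrane anchor stood apart from its partners. SDHD read 9.86 and 9.80 in REC-1 and 8.49 and 8.38 in Z138, a 2.63-fold line difference (1.39 ± 0.16, adjusted p = 0.0016, limma), and its 4 other probe sets gave 1.2 to 1.58. SDHC, the other membrane anchor, was at -0.39 (adjusted p = 0.095, limma), and SDHA, the catalytic flavoprotein, at -0.12 (adjusted p = 0.58, limma). In complex III the same was true of CYC1, the gene of cytochrome c1, which hands electrons to cytochrome c. CYC1 read 11.47 and 11.32 in REC-1 and 10.08 and 10.02 in Z138 (1.34 ± 0.16, adjusted p = 0.0018, limma), with its 2 other probe sets at 1.38 and 1.43. The core protein genes UQCRC1 (0.26) and UQCRC2 (0.19) and all 6 accessory genes of complex III did not pass. Of these 6, UQCR11, UQCRB and UQCR10 were at 0.46, 0.44 and 0.43. CYCS, which encodes cytochrome c itself, read 11.86 and 11.80 in REC-1 and 11.84 and 11.87 in Z138 (-0.03, adjusted p = 0.90, limma), and here the lines overlapped.

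In complex IV, cytochrome c oxidase, 1 of 11 kept genes passed. It was COX4I1, whose product is a regulatory subunit. It read 10.58 and 10.49 in REC-1 and 11.47 and 11.38 in Z138, 1.86-fold lower in REC-1 (-0.90 ± 0.16, adjusted p = 0.0068, limma), with its 2 other probe sets at -0.77 and -1.09. The other 10 kept genes lay between -0.29 (COX6A1) and 0.23 (COX7B), among them COX5A at -0.18, COX5B at 0.18, COX7A2 at -0.02 and COX7A2L, which joins complexes III and IV into supercomplexes, at -0.26. COXFA4, formerly named NDUFA4 and now counted to complex IV, is outside the naming rule and was at -0.24 (adjusted p = 0.26, limma).

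The isoforms of complex IV that are restricted to other tissues stayed below the brightness minimum on all 4 arrays. They were COX4I2 of lung, COX6A2 and COX7A1 of heart and muscle, and COX6B2, COX7B2 and COX8C of testis. The values of COX4I2 were 2.98, 3.17, 2.97 and 3.41 on the REC-1 control, REC-1 CC-292, Z138 control and Z138 CC-292 arrays. COX6A2 read 3.66, 3.29, 3.34 and 3.93, and COX7A1 read 3.31, 3.33, 3.46 and 3.19. These 6 are all the members that were not kept, so that each measured complex IV subunit with tissue isoforms was represented above the minimum by its widely expressed gene.

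In the ATP synthase 3 of the 4 genes that passed belong to the catalytic F1 head. ATP5F1D, the delta subunit of the rotor, read 10.39 and 10.36 in REC-1 and 9.35 and 9.33 in Z138 (1.03 ± 0.16, adjusted p = 0.0042, limma), and its 2 other probe sets gave 1.01 and 1.04. ATP5F1A, the alpha subunit, read 12.48 and 12.44 against 11.60 and 11.70 (0.81 ± 0.16, adjusted p = 0.010, limma). ATP5F1C, the gamma subunit that forms the rotor shaft, was lower in REC-1, at 9.56 and 9.49 against 10.14 and 10.08 (-0.58 ± 0.16, adjusted p = 0.029, limma). ATP5F1B, the catalytic beta subunit, was at 0.47 and missed the threshold (adjusted p = 0.060, limma), as did ATP5F1E at 0.29.

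In the membrane part ATP5MG, subunit g, read 12.06 and 12.11 in REC-1 and 11.12 and 11.12 in Z138 (0.97 ± 0.16, adjusted p = 0.0053, limma). None of the 4 peripheral stalk genes passed, and they ranged from -0.08 to 0.14. ATP5MC1, ATP5MC2 and ATP5MC3, which encode the same mature c-ring protein behind different import signals, were at -0.24, 0.31 and -0.41 without passing. ATP5IF1, the inhibitor that stops the enzyme from running backwards, was at 0.31 (adjusted p = 0.16, limma). The probe sets of ATP5MK disagreed most, with an SD of 2.37 over 3 on the control difference, so that its value of 0.06 rests on the choice of probe set.

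**Figure D2:**
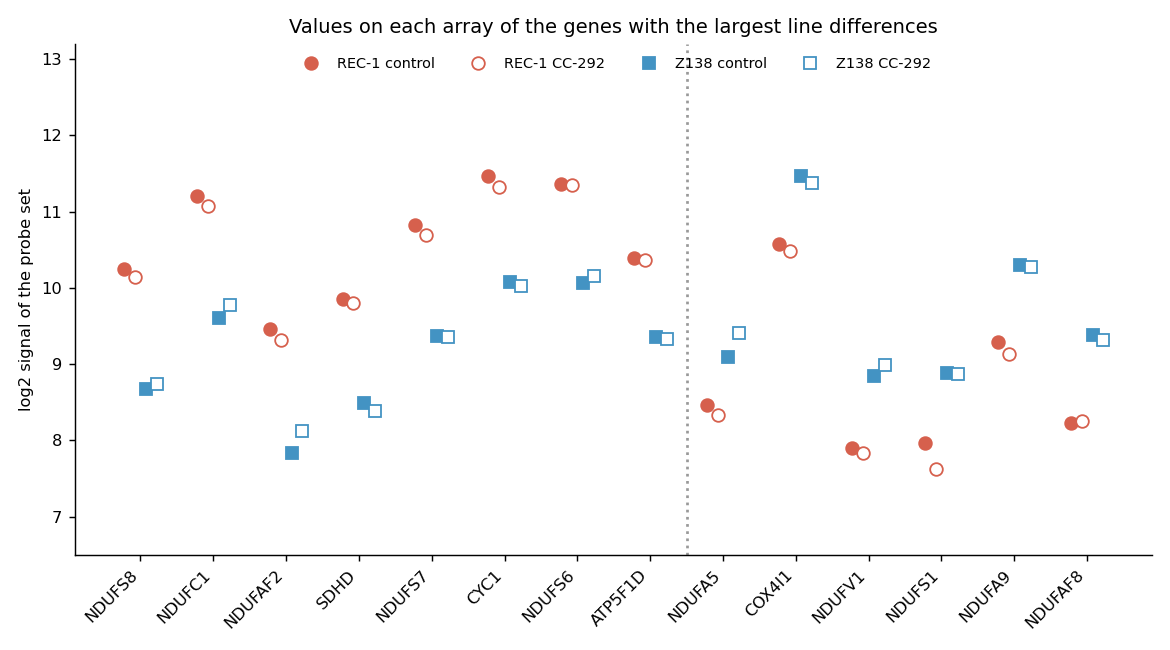
The log2 signal (y axis) on each of the 4 arrays is shown for the 8 members with the highest and the 6 with the lowest line difference among those that passed. In each gene both REC-1 arrays (red circles) lie on one side of both Z138 arrays (blue squares), and open symbols (CC-292) sit close to filled ones (control). Heights compare within a gene only.

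Of the 28 members that passed, 18 had another probe set at the minimum, and in 16 of them every other probe set had the same sign, the exceptions being NDUFS8 and NDUFB3. Of 35 such probe sets, 33 had the same sign and 25 were at least 1.5-fold. The call held under all 8 alternative analyses for 19 of the 28, among them 12 higher and 7 lower in REC-1. The 9 others, all with an estimate between -0.64 and 0.74, lost it without a brightness filter, with the mean of probe sets or with both. These alternatives are not independent checks. Those that change the filter or the limma settings use the same probe-set values. For a gene with 1 probe set, the mean of probe sets is that same value again.

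Some of these genes neighbour each other in the RefSeq annotation of GRCh38.p14. NDUFV1 and NDUFS8, with opposite line differences of -1.05 and 1.49, are separated by 7 protein-coding genes, and the 4 of those that were kept had a median control difference of 0.13. ATP5F1D and NDUFS7, both higher in REC-1, are separated by 5 protein-coding genes, of which 4 were kept. Their median control difference was 0.79, and 3 were above 0. UQCR11, at 0.46 without passing, follows NDUFS7 after 11 further protein-coding genes, and the 7 kept there had a median of 0.28. Between UQCRB and COX6C, which did not pass either, the 12 genes kept had a median of 0.75, and 11 were above 0. In the other stretches between neighbouring members the median lay from -0.12 to 0.21. Over all genes it was 0.02, with 51.1% above 0.

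Respiratory genes are known for promoters that bind NRF1 (nuclear respiratory factor 1), GABP and YY1. RefSeq promoter windows (250 bases before to 50 after the start site, 300 bases in all, GRCh38.p14) were at hand for 72 of the 87 kept members. They were searched on both strands for CCGGAAG (GABP), for AAGATGGC (YY1) and, for NRF1, for GCGCA and GCGC with any 1 base between them. None of the 3 motifs contains another. NRF1 letters were found in 22.2% of these windows, against 12.6% of the 8899 protein-coding genes kept that had a window and 8.58% of all 15843 windows. GABP letters were found in 27.8%, 20.5% and 14.2%, and YY1 letters in 13.9%, 5.85% and 3.91%. At least 1 of the 3 was in 52.8% of member windows and in 34.1% of those of all genes kept.

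**Figure D3:**
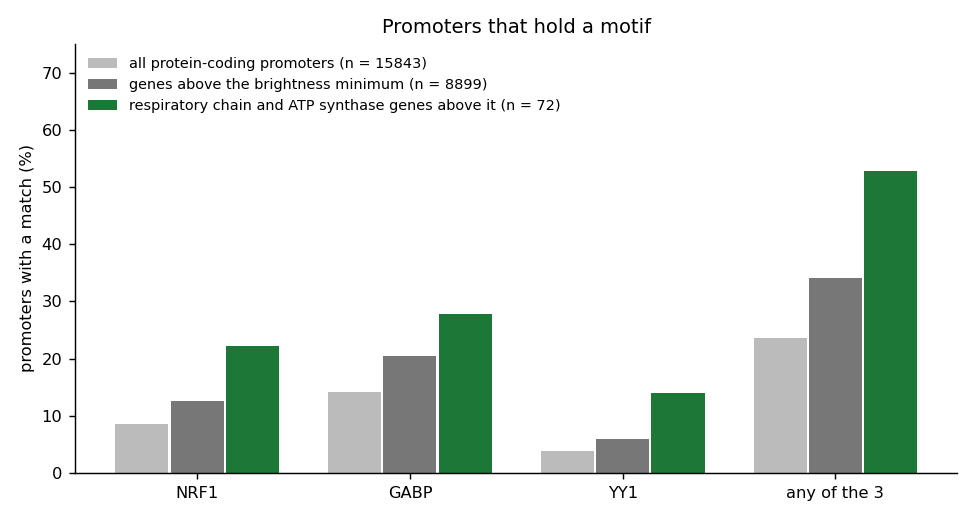
Bars give the percentage of 300-base promoter windows (y axis) that hold the letters of each motif on either strand, for all protein-coding genes, for those above the brightness minimum, and for the members above it. Members lie above both reference sets for each motif, for example 22.2% against 12.6% and 8.58% for NRF1.

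Any of the 3 was found in 8 of 15 windows of members higher in REC-1, in 5 of 9 of those lower in REC-1 and in 25 of 48 of those that did not pass. NRF1 letters were in 5, 2 and 9 of these windows, GABP letters in 2, 2 and 16 and YY1 letters in 2, 2 and 6. The 120 bases before the start site of 6 members that passed are printed as examples of such windows with opposite line differences, from RefSeq, on the strand of the gene, 5′ to 3′, with matches in capitals. SDHD, NDUFA11 and NDUFA12 were higher in REC-1 and hold NRF1 letters, and SDHD also holds GABP letters on the opposite strand. NDUFC1 was higher and holds none. NDUFA9 and ATP5F1C were lower and hold NRF1 letters.
SDHD (chr11:112086753-112086872, + strand): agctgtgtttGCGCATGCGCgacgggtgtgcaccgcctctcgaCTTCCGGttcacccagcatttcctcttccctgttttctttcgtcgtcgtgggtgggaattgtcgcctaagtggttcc
NDUFA11 (chr19:5903791-5903910, - strand): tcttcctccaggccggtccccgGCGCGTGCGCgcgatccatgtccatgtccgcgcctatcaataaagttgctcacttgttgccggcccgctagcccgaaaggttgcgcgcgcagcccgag
NDUFA12 (chr12:95003698-95003817, - strand): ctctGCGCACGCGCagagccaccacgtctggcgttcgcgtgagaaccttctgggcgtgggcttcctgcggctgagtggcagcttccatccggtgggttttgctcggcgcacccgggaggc
NDUFC1 (chr4:139302552-139302671, - strand): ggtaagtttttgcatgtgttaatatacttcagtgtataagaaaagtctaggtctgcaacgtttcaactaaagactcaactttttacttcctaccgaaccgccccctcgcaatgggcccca
NDUFA9 (chr12:4648994-4649113, + strand): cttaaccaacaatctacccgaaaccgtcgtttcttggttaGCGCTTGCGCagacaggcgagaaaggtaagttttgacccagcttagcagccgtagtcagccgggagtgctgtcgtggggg
ATP5F1C (chr10:7788057-7788176, + strand): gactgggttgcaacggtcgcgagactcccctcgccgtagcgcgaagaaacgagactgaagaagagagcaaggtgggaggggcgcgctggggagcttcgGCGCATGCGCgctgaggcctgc
These letters are a description of the windows and not evidence of binding in these cells.

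After CC-292 the members stayed close to their controls in both lines. The difference is CC-292 minus control on 1 array each, so a single line has no test, and the error given is the SD over a gene's probe sets, which holds no error between cultures. Pooled over genes with several probe sets, this SD was 0.313 for the REC-1 difference and 0.252 for that of Z138, and it stands in where a gene has only 1. In REC-1 80 of 87 members lay within 1.2-fold of the control, and in Z138 83 of 87 did, beside 62.4% and 75.5% of all genes. The members were brighter than the genes they are set beside. At least 1 array reached the 70th percentile of brightness (log2 6.61) in 85 of the 87, but in 7707 of the 10823 genes kept. The part of brightness in these shares was not tested. In REC-1 1 member was at least 1.5-fold lower (4.73% of all genes) and 0 higher (4.32%), or 9.05% of all genes either way. In Z138 0 members were 1.5-fold lower (2.52%) or higher (2.18%), or 4.7% of all genes either way. The median difference was -0.02 in REC-1 and 0.02 in Z138, beside -0.05 and 0.01 over all genes. In REC-1 50 of 87 were below 0 and 37 above (57.8% and 42.1% of all genes), and after cyclic loess scaling 37 were below 0 and the median was 0.04. In Z138 39 were below and 48 above (48.1% and 51.9%). The signs were below 0 in both lines for 24 members (26.5% of all genes), above 0 in both for 22 (20.5%), below in REC-1 and above in Z138 for 26 (31.4%) and the reverse for 15 (21.6%). The difference of differences, REC-1 minus Z138, was below 0 for 55 and above 0 for 32 (56.9% and 43.1% of all genes). It was at least 1.5-fold lower for 1 member (8.81%) and higher for 0 (7.72%), or 16.5% of all genes either way.

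The average effect over both lines, tested with limma with the line as a block, called 0 of 87 members and 0 of 10823 genes (0% called). At an unadjusted p under 0.05 the limma fit had 1 member, ATP5MGL, and 472 genes, which is 4.36% of those tested. ATP5MGL, a gene copy of ATP5MG, read 4.77 in the REC-1 control and 5.27 with CC-292, and 5.21 and 5.59 in Z138. Its average difference was 0.44 ± 0.16 (SE, adjusted p = 0.9999, limma), close to the brightness minimum. The design leaves 1 residual degree of freedom, which is the difference in the CC-292 effect between the lines. In simulated data of the same size, without such a difference, the fit found 6 of 100 genes that differed 2-fold. It found 95 of 100 that differed 4-fold.

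**Figure D4:**
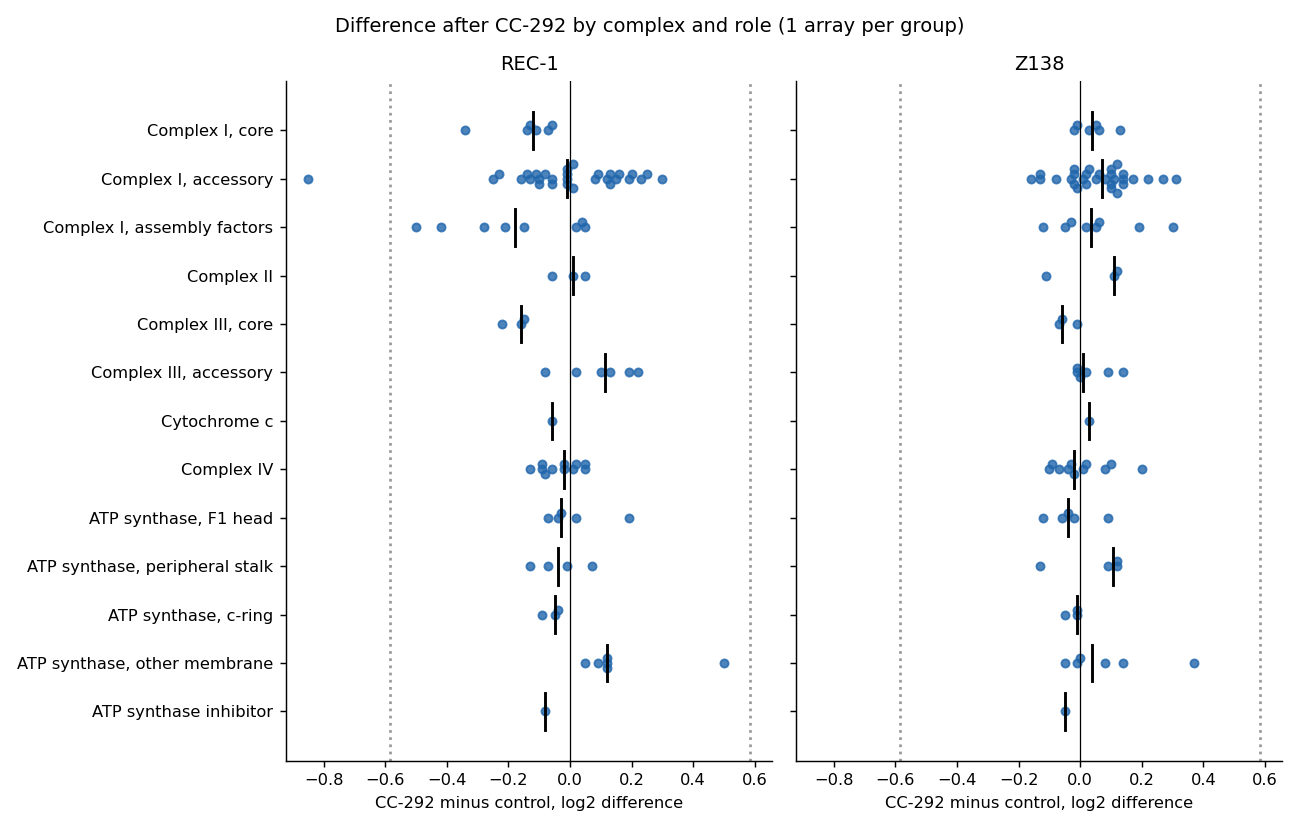
Points give the CC-292 minus control log2 difference (x axis) of each member kept, in rows by complex and role, for REC-1 (left) and Z138 (right). Black bars are medians, dotted lines mark 1.5-fold, and 1 point lies beyond them, NDUFA13 in REC-1.

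The single gene past 1.5-fold was NDUFA13, a complex I subunit also known as GRIM-19. It read 4.63 and 3.78 in REC-1 and 3.67 and 3.89 in Z138, a difference of -0.85 in REC-1. It passed the brightness minimum through the REC-1 control array alone, so that it had to be lower on the others, and it was not kept at a higher minimum or after rescaling of the arrays. NDUFA13 also has 3 probe sets that carry YJEFN3 as a second symbol and were left out of the analysis. They were looked up after this value was seen, and 2 of them were bright. These read 11.52 and 11.55, and 11.07 and 11.13, on the control and CC-292 arrays of REC-1, so that difference was not seen in them (0.04 and 0.07).

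In complex I all 6 measured core genes were below 0 in REC-1, as were 57.8% of all genes (median -0.05), from NDUFS1 at -0.34 (SD 0.44 over 5 probe sets) to NDUFV1 at -0.06, with a median of -0.12. Among the 30 accessory genes 16 were below 0 (median -0.01). NDUFB1 (0.30), NDUFA12 (0.25) and NDUFA2 (0.23) were highest and NDUFV3 lowest after NDUFA13, at -0.25 (SD 0.01 over 2 probe sets). In Z138 2 of 6 core genes (median 0.04) and 9 of 30 accessory genes (median 0.07) were below 0. There NDUFA5 (0.31) and NDUFB6 (0.27, SD 0.09 over 2 probe sets) were highest and NDUFB9 (-0.16, SD 0.04 over 3 probe sets) lowest.

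In complex III the 3 core genes, UQCRC1 (-0.22, SD 0.33 over 3 probe sets), UQCRC2 (-0.16, SD 0.13 over 2) and CYC1 (-0.15, SD 0.06 over 3), were below 0 in REC-1, and 5 of its 6 accessory genes were above 0, up to UQCRHL at 0.22. UQCRHL is a near copy of UQCRH, and the arrays may not tell their transcripts apart. Joined after these values were seen, the 9 core genes of complexes I and III were all below 0 in REC-1 (median -0.14) and 5 of 9 in Z138 (median -0.01), where 57.8% and 48.1% of all genes were. With the mean of all probe sets the REC-1 median was -0.07 and 8 of 9 were below 0. UQCRC1 was then above 0 (mean 0.04 over 3), although its brightest probe set (-0.22) and the one with the median difference (-0.07) were both below 0. Of the 9 values in REC-1, NDUFS1 alone was larger than the pooled probe-set SD of 0.313.

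The NDUFAF assembly factors had the lowest median among the groups of complex I in REC-1, -0.18, with 5 of 8 below 0, against 0.04 in Z138. NDUFAF7, a methyltransferase needed for complex I assembly, read 8.27 in the REC-1 control and 7.77 with CC-292 (-0.50), but its 3 probe sets had an SD of 0.49 and a mean of 0.06. NDUFAF1, which chaperones the membrane arm, read 7.69 and 7.27 (-0.42, SD 0.24 over 2 probe sets). NDUFAF6 was at -0.28 (SD 0.30 over 3) and NDUFAF4 at -0.21 (SD 0.06 over 3). With the mean of all probe sets the median of the 8 was -0.03.

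In complex II, SDHA, SDHC and SDHD were at 0.01, 0.05 and -0.06 in REC-1 and at 0.12, 0.11 and -0.11 in Z138. CYCS was at -0.06 in REC-1 and 0.03 in Z138. Complex IV lay between -0.13 (COX8A) and 0.05 (COX5A and COX5B) in REC-1 and between -0.10 (COX8A) and 0.20 (COX5B) in Z138. COX4I1, which differed between the lines, was at -0.09 after CC-292 in each of them, with an SD over 3 probe sets of 0.45 in REC-1 and 0.14 in Z138.

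In the ATP synthase the membrane genes other than the c-ring were above 0 in REC-1 in 6 of 6 cases (42.1% of all genes), with a median of 0.12, from ATP5MG at 0.05 to ATP5MGL at 0.50. Of these 6 values ATP5MGL alone was larger than the pooled probe-set SD of 0.313. This gene lay close to the brightness minimum, at 4.77 and 5.27. In Z138 3 of these 6 were above 0. The 3 c-ring genes were below 0 in both lines, by no more than -0.09. F1 head genes lay between -0.07 (ATP5F1C) and 0.19 (ATP5F1E) in REC-1 and between -0.12 (ATP5F1B) and 0.09 (ATP5F1A) in Z138. ATP5PB of the peripheral stalk was at -0.13 in each line, with an SD over 4 probe sets of 0.44 in REC-1 and 0.10 in Z138. ATP5IF1 was at -0.08 in REC-1 and -0.05 in Z138 (SD 0.20 and 0.14 over 4 probe sets).

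Other genes of mitochondrial energy supply were taken as lists, to be read against 21.6% of all genes higher in REC-1 and 23.1% lower. In the line fit, complex I assembly factors outside the NDUFAF names had 5 higher and 1 lower in REC-1 of 12, and those of complexes II to V had 5 higher and 12 lower of 41. Regulators of respiratory gene transcription had 3 higher and 3 lower of 14. Among these regulators, the genes of the factors whose motifs were searched did not pass, although they lie outside the rule for named genes and are given for the motifs, with NRF1 at -0.06, GABPA at -0.12 and YY1 at 0.32 (adjusted p = 0.79, 0.59 and 0.17, limma). ESRRA, the gene of an estrogen-related receptor that activates respiratory genes, was 1.22 ± 0.20 higher in REC-1 (adjusted p = 0.0058, limma). ESRRG (2.99, below the brightness minimum in Z138) and HIF1A (0.91) were the others higher. CREB1 (-0.88), MYC (-0.79) and SP1 (-0.74) were the lower ones. Mitochondrial DNA maintenance genes had 5 higher and 3 lower of 18, and genes of the tricarboxylic acid cycle 5 higher and 3 lower of 16. Electron entry and carrier genes had 2 higher and 7 lower of 20, adenine nucleotide and phosphate carriers and uncouplers 4 higher and 0 lower of 8, and genes of the large subunit of the mitochondrial ribosome 12 higher and 6 lower of 48.

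After CC-292 no gene of these lists passed the limma test of the average effect, as no gene of the array did. In REC-1 the mitochondrial ribosome genes were below 0 in 43 of 48 cases (median -0.13), and in 22 of 48 in Z138 (median 0.03). Of all genes 57.8% and 48.1% were below 0, with medians of -0.05 and 0.01. Tricarboxylic acid cycle genes were below 0 in 11 of 16 cases in REC-1 (median -0.13) and 9 of 16 in Z138 (median -0.04). The members of the complexes, with medians of -0.02 and 0.02, were thus nearer to 0 in REC-1 than either list, a contrast that was not tested. ESRRA read 6.98 and 7.60 in REC-1 (0.62, SD 0.26 over 2 probe sets) and 6.07 and 6.08 in Z138. The other listed genes past 1.5-fold in REC-1 were GPD2 (-0.70, SD 0.58 over 4 probe sets), AIFM2 (0.86, SD 0.61 over 3), COQ8A (0.75, SD 0.56 over 2), SLC25A27 (0.61, SD 0.50 over 2) and HIGD1A (0.74, 1 probe set). In the REC-1 control AIFM2 was below the brightness minimum (4.33) and HIGD1A close to it (4.91). None of the listed genes was past 1.5-fold in Z138.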

How the data were processed

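Total RNA of 4 samples was labelled from 150 ng per the labels' protocols and hybridised to Affymetrix arrays, 1 per group. The deposited table holds 1 log2 signal per probe set and array, a scale inferred from its range (2.18 to 14.26). RMA and Affymetrix Expression Console 1.1 are named in the submitters' processing notes; the sources used here name no settings and no genome build. RMA commonly equalises arrays, so a shift of most genes one way would not show.

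Of 49386 probe sets, 45259 had 1 symbol, 1327 several and 2800 none; only the first were used, and 45178 matched RefSeq (GRCh38.p14) by Entrez identifier. Of those with several symbols, 10 were probe sets of members and were left out. Some of these only repeat the symbol NDUFA10. The brighter of them read 9.32 in the REC-1 control and 9.37 in the Z138 control. The probe set used for NDUFA10 read 8.01 and 7.79 there, so it was not the brightest of this gene. The brightest probe set stood for a gene, and 10823 genes whose highest value reached log2 4.63 were kept.

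Groups came from GEO titles. Differences within a line and between controls rest on 1 array each and are given as values, medians and counts past 1.5-fold, untested. limma 3.58.1 (R 4.3.3; lmFit, eBayes, Benjamini-Hochberg over all genes kept) tested the average effects of CC-292 and of line, each with the other as a block (1 residual and 4.5 prior degrees of freedom). On simulated data with 10823 genes the line test found 52 of 100 at 2-fold and 100 of 100 at 4-fold and made 16 false calls. The CC-292 test found 6 and 95 and made 5. Only the 100 genes of each size differed there, and no CC-292 effect differed between lines. On the real arrays 44.7% of genes passed the line test, so the simulated counts do not give its recovery or its false calls. Array number limits the precision. Python 3.11.15, pandas 2.3.3 and matplotlib 3.10.9 were used.

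Members and lists were chosen with earlier results of these data known. Genes to name were the 5 highest and 5 lowest members per comparison (in the line fit, among those past the threshold), members past 1.5-fold or the CC-292 threshold, the extremes of each complex in each line, a set fixed by name, and up to 3 genes per pathway list past 1.5-fold. Other members that passed the line test, and further examples, were named after their values were seen. Alternatives changed the filter, scaling, probe set, fold and limma settings.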

Additional observations from a re-analysis of the deposited data

Results flagged for a closer look

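With 1 array per group, 9 members were picked out because their difference after CC-292 had opposite signs in the lines and the lines stood at least 1.2-fold apart. They are 10.3% of the 87 members kept, whereas 35.9% of all genes met the same rule. The members were brighter, with 85 of the 87 at the 70th percentile of brightness, against 7707 of the 10823 genes kept. The part of brightness in these shares was not tested. The difference between lines was not tested. All 9 belong to complex I or its assembly, as do 44 of the 87 members kept. All were below 0 in REC-1 and above 0 in Z138, as were 20.9% of all genes under this rule. In Z138 only NDUFA5 (0.31), NDUFAF2 (0.30) and NDUFB6 (0.27) exceeded the pooled probe-set SD of that line, 0.252. NDUFAF1, NDUFAF7 and NDUFAF6 were nearly flat there, at 0.02, 0.05 and 0.06. As the REC-1 minus Z138 difference of differences, the accessory genes were NDUFA13 at -1.07, NDUFA5 at -0.44, NDUFB6 at -0.37, NDUFB8 at -0.37 and NDUFC1 at -0.31. The assembly factor genes were NDUFAF7 at -0.56, NDUFAF1 at -0.44, NDUFAF2 at -0.44 and NDUFAF6 at -0.34. Probe sets of the same gene differed in this quantity by a pooled SD of 0.399, which only NDUFA13, NDUFA5, NDUFAF7, NDUFAF1 and NDUFAF2 exceeded. The 3 probe sets of NDUFAF7 had an SD of 0.49 and a mean of 0.00, so its value rests on the brightest of them. NDUFA13 reached the brightness minimum on 1 array only, and its bright probe sets shared with YJEFN3 differed by 0.04 and 0.07 in REC-1 and by 0.01 and 0.02 in Z138. For NDUFB8, a bright probe set shared with SEC31B gave -0.24 in REC-1 and 0.08 in Z138.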

How the results depend on the processing

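In REC-1, 0 members were at least 1.5-fold different after CC-292 at the 70th percentile of brightness, after centring, quantile normalization or cyclic loess, 2 with the probe set of median difference, 0 at 2-fold and 7 at 1.2-fold, against 1 as reported. Cyclic loess put the REC-1 median of members at 0.04. In Z138, 1 member was 1.5-fold different without a filter and 4 at 1.2-fold, and 3 core genes of complexes I and III were below 0 with the mean of probe sets. For the difference of differences, 1 member was 1.5-fold apart as reported, 3 without a filter and with the mean of probe sets, 4 with the probe set of median difference, 10 at 1.2-fold, and 0 at the 70th percentile, after centring, quantile normalization and cyclic loess. Its median was 0.01 with quantile normalization and 0.04 with cyclic loess, where 36 members were below 0 against 55 as reported. For the controls, 10 members were 2-fold and 52 were 1.2-fold different against 23 at 1.5-fold, and averaging probe sets gave a median of 0.12, taking the middle one 0.10. Taking the middle one also turned the control difference of NDUFV3 to -0.08 from 0.80. With an intensity trend limma called 33 members higher in REC-1 against 18. In the line fit the count of members lower and the counts over all genes stayed within 1.5 times under all alternatives, and the CC-292 fit called 0 genes under each of its 8 alternatives. The cause of these shifts was not tested. The limma test of CC-292 pairs the arrays of a line through its block, and without that block it also called 0 genes.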
